A study of Mus musculus with 12 samples.

Results

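From the 55453 genes listed in the count table, 10 were taken for their unequal counts in WT and KO mouse skin, and none of them lies on chromosome 9, which carries Thy1. They are Wdfy1, Nnt, Tdg, the pseudogenes Rbpj-ps3, Gm14292, Gm14719, Gm29787 and Gm9855, the long noncoding RNA AA465934 and the predicted gene Gm16867. They were chosen by name because their counts were high in one genotype and low in the other under both treatments, with Nnt also taken as a known marker of C57BL/6 substrains. The difference between genotypes is therefore the reason these genes are here. It is given for them as a description with no test, and only the bleomycin comparisons were tested.

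Bulk RNA-Seq was done on skin from 12 mice, WT or Thy-1 KO, in 4 groups of 3 mice. PBS was injected in the control groups, WT PBS and KO PBS, and bleomycin in the treated groups, WT BLM and KO BLM. Bleomycin, a DNA-damaging drug that causes skin fibrosis, was injected s.c. at 10 mg/kg per day and skin was taken at day 21. The labels give 1 strain, C57/BL6, for all mice. The methods describe female mice of 8 to 12 weeks, KO mice backcrossed for at least 10 generations to C57BL/6, WT mice of the C57BL/6J substrain, and controls that were littermates. Nothing in the labels says which mice shared a litter, so litter and genotype cannot be told apart here. The KO is a germline loss of Thy1, so every cell of the skin carries it.

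NNT is an enzyme of the inner mitochondrial membrane that regenerates NADPH, and the C57BL/6J substrain is known for carrying a deletion inside Nnt that other C57BL/6 substrains lack. TDG removes thymine and oxidised forms of methylated cytosine from DNA in base excision repair, and WDFY1 is an endosomal adaptor that recruits TRIF to the receptors TLR3 and TLR4. A processed pseudogene is a copy of a messenger RNA that was written back into the genome, so it has no introns and often resembles its parent gene closely enough that short reads fit both places.

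All 5 pseudogenes had a protein-coding parent elsewhere in the genome when their transcripts were aligned with all annotated mouse transcripts (GENCODE M21, build GRCm38). Gm9855 (chr10:42054113-42055306, minus strand), called Tdg-ps2 by RefSeq, matched Tdg at 99.2% identity over 1194 bases with 9 mismatches. Rbpj-ps3 (chr6:46529354-46530794, minus strand) matched Rbpj, the DNA-binding factor of the Notch pathway, at 99.7% over 1441 bases with 4 mismatches. It lies within Cntnap2, which is read from the opposite strand. Gm14292 (chr2:179177425-179177880, plus strand) matched Wtap, a subunit of the RNA m6A methyltransferase complex, at 99.3% over 456 bases with 3 mismatches. Gm14719 (chrX:49660960-49661299, plus strand) matched Ppdpf, a small gene named for pancreatic differentiation, at 97.7% over 348 aligned positions, with 0 mismatches and 8 gap bases. Gm29787 (chr13:51205263-51206111, minus strand) matched Cttn, the actin-binding protein cortactin, at 96.2% over 842 positions, with 26 mismatches and 6 gap bases.

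The stretches of 100 transcript bases shown next carry the differences by which a read can be placed on a pseudogene or on its parent, and capitals mark the positions at which the members of each pair differ. The first pair holds 4 differences between Gm9855 (chr10:42054217-42054316, minus strand) and the coding sequence of Tdg (plus strand, across exons 9 and 10, within chr10:82648018-82648616).
Gm9855: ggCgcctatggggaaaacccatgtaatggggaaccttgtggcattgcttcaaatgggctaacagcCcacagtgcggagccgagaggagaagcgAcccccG
Tdg: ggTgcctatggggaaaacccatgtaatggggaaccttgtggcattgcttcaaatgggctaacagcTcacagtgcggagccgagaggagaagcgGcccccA

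The next pair, with 2 differences, is Rbpj-ps3 (chr6:46529796-46529895, minus strand) and exon 9 of Rbpj (chr5:53652638-53652737, plus strand).
Rbpj-ps3: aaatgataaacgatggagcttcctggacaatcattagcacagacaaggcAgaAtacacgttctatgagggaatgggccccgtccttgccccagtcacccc
Rbpj: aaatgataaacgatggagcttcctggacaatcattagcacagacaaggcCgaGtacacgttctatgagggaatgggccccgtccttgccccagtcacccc

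Gm14292 (chr2:179177673-179177772, plus strand) and Wtap (minus strand, across exons 5 and 6, within chr17:12975400-12980846) hold 3 differences.
Gm14292: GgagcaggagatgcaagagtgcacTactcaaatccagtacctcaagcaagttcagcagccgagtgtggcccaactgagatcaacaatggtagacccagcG
Wtap: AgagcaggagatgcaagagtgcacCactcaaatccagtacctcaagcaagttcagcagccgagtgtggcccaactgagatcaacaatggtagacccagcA

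The last pair, Gm29787 (chr13:51205700-51205799, minus strand) and Cttn (minus strand, across exons 13 and 14, within chr7:144440072-144441771), holds 6 differences.
Gm29787: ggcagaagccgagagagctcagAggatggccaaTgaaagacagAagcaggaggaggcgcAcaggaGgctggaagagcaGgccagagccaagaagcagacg
Cttn: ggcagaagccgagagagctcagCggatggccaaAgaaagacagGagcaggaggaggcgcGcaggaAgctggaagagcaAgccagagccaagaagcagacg

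These pairs differ in how often a read could tell them apart. Of all windows of 75 bases in the pseudogene, 83.3% for Rbpj-ps3, 72.6% for Gm14719, 68.1% for Gm9855, 54.5% for Gm14292 and 4.0% for Gm29787 were found letter for letter in the parent. The counting tool and its treatment of reads that fit more than 1 place are not given in the sources used here, so counts within a pair are uncertain for every pair named above. Wdfy1, Nnt and AA465934 had no relative at 90% identity over 200 bases.

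Libraries held 26473700 to 38890450 counts. Thy1 itself had 3075, 3509 and 5872 counts in WT PBS, 5899, 10712 and 12685 in WT BLM, 1373, 3390 and 2599 in KO PBS and 2766, 4129 and 2727 in KO BLM. Thy1 counts were thus present in all 6 KO mice, and counts per gene do not show whether they come from the altered part of the gene. On the CPM scale (counts scaled to 1000000 per library), every KO mouse was below every WT mouse of the same treatment, with a log2 fold change of -0.75 ± 0.30 (SE) under PBS and -1.69 ± 0.31 under BLM (edgeR adjusted p = 0.224 and 0.112). Hair genes, a list of 22 hair keratins and hair regulators, set some libraries apart. Their summed level was 50220 to 72425 CPM in WT PBS and 101 to 886 CPM in WT BLM. Among KO mice it was 79516 CPM in mouse 136 (PBS) and 38252 CPM in mouse 141 (BLM), against 80.6 to 6377 CPM in the other 4. Krt85, 1 of the 22, is not listed in the count table, so it was not measured and the sums cover 21 genes. Keratinocyte and fibroblast markers, 6 of 6 genes each, were counted, as the label skin calls for. In bulk skin, fewer cells of a type and less RNA per cell cannot be told apart, and p-values reflect the spread between these mice only.

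All 10 genes passed the filter on low counts, and in all 10 the 6 KO and the 6 WT mice did not overlap in CPM. This is what the choice of genes fixed. Of the 18311 genes tested, 0.328% did not overlap between the genotypes. Of the 10 genes 7 did not overlap with KO mice higher, as did 0.137% of the genes tested, and 3 with WT mice higher, as did 0.191%. They lie on 8 chromosomes. By the width of the gap they ranked from 1 (Gm14719) to 38 (Nnt) of the 60 genes that did not overlap, so several genes outside the 10 were further apart than Nnt, Tdg or AA465934. The smallest difference among the 10 was that of Nnt under BLM, 1.69-fold higher in KO mice by summed counts. The plot of CPM by group shows each mouse.

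**Figure D1:**
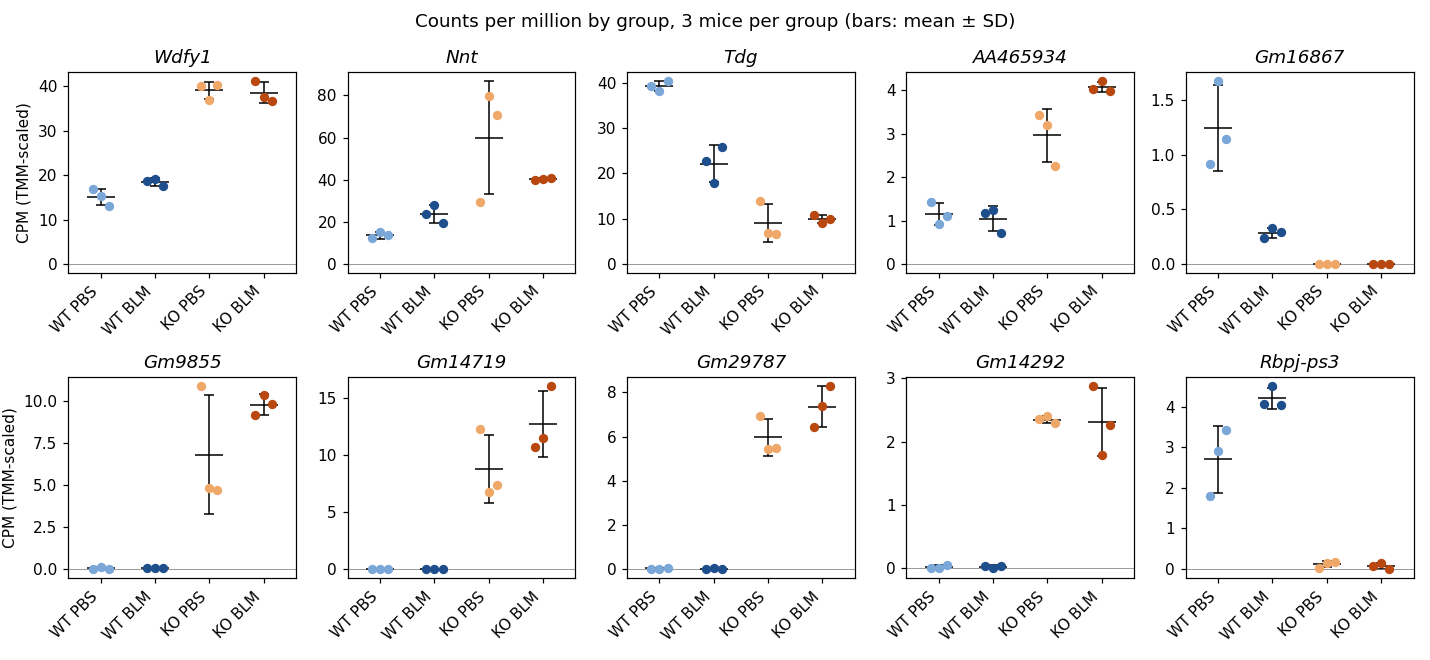
CPM of each of the 10 genes (y axis, a separate linear scale per panel) in the 12 mice by group (x axis), with bars for the group mean ± SD. No KO point overlaps a WT point in any panel, and the nearest approach is Nnt, where the lowest KO mouse had 29.5 CPM and the highest WT mouse 27.9 CPM.

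Wdfy1, the endosomal adaptor (chr1:79702262-79776143, minus strand), was counted 496, 467 and 514 times in WT PBS, 479, 590 and 535 times in WT BLM, 1206, 1292 and 1355 times in KO PBS and 1347, 1214 and 1040 times in KO BLM. Every KO library held about the same amount, well above every WT library. WT PBS mice averaged 15.1 ± 1.86 CPM (SD, n = 3) and WT BLM mice 18.5 ± 0.867, against 39.1 ± 1.92 in KO PBS and 38.5 ± 2.37 in KO BLM. The KO to WT difference was 1.38 ± 0.12 (log2, SE) under PBS and 1.06 ± 0.12 under BLM. Bleomycin gave 0.30 ± 0.12 in WT mice (edgeR adjusted p = 0.0683) and -0.02 ± 0.11 in KO mice (adjusted p = 0.937), neither past the threshold of 0.05, although DESeq2 placed the WT value just past it (0.28, adjusted p = 0.0481). Wdfy1 overlaps Mrpl44, a mitochondrial ribosomal protein gene on the opposite strand, which showed 0.09 ± 0.08 between KO and WT mice (adjusted p = 0.882). None of the other Wdfy family genes was called between genotypes, with Wdfy2 at -0.04, Wdfy3 at -0.22 and Wdfy4 at 0.07, and 0 of the 3 had an unadjusted p under 0.05 or passed in DESeq2.

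The TLR3 and TLR4 pathway that WDFY1 serves was taken as a list of 15 receptors, adaptors, kinases and induced genes, of which 14 were tested. Between genotypes 0 of 14 passed in edgeR, where 0.158% of all genes did, 1 had an unadjusted p under 0.05, and 0 passed in DESeq2. The median difference was 0.00 on the log2 scale, against 0.01 over all genes tested. With bleomycin, 6 of the 14 rose in WT mice and none fell, where 19.8% of all genes rose. In the same comparison 6 of 6 macrophage markers rose, from a summed level of 264 to 522 CPM in WT PBS to 1628 to 2165 CPM in WT BLM, and their part in the list's rise was not tested. In KO mice 0 passed in edgeR, where 0.306% of all genes did, 3 had an unadjusted p under 0.05 and 3 passed in DESeq2.

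Nnt, the mitochondrial NADPH enzyme, is annotated as a pair of overlapping genes of the same name (chr13:119335448-119408997, minus strand). Its counts were 357, 465 and 530 in WT PBS, 607, 856 and 596 in WT BLM, 887, 2796 and 2370 in KO PBS and 1296, 1305 and 1149 in KO BLM. The KO PBS group was the most uneven, with mouse 136 far below the others, and the KO BLM mice were nearly alike. Its mean was 13.6 ± 1.62 CPM (SD, n = 3) for WT PBS and 23.7 ± 4.18 for WT BLM, against 60.0 ± 26.8 in KO PBS and 40.2 ± 0.509 in KO BLM. The KO to WT difference was 2.14 ± 0.31 (log2, SE) under PBS and 0.76 ± 0.30 under BLM. Counts per gene do not separate exons, so these values do not show which exons were read in either genotype.

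With bleomycin, Nnt differed by 0.80 ± 0.30 (log2, SE) in WT mice (edgeR adjusted p = 0.0604) and by -0.58 ± 0.30 in KO mice (adjusted p = 0.300). The difference between these responses, KO minus WT, was -1.38 ± 0.42 (adjusted p = 0.0847). No response of Nnt passed in edgeR, while DESeq2 placed the WT response (0.78, adjusted p = 0.0494) and the difference (-1.38, adjusted p = 0.0242) past the threshold. Whether these values passed in edgeR depended on single KO PBS mice. Without mouse 137 the change in WT mice stayed at 0.80 and passed narrowly (adjusted p = 0.0482). Without mouse 136, the KO mouse with the highest level of hair genes, it was also 0.80 and passed (adjusted p = 0.00159). Nnt then fell by 0.90 in KO mice (adjusted p = 0.0113), and the difference between responses was -1.70 (adjusted p = 0.000556). With the hair genes as a covariate the same 3 values were 0.02, -0.17 and -0.19, and none passed (adjusted p = 0.994, 0.675 and 0.934).

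Nnt was read beside a list of 18 genes of mitochondrial NADPH and peroxide handling, itself included. Of the 17 others, 0 passed between genotypes in edgeR, 1 had an unadjusted p under 0.05 and 0 passed in DESeq2, with differences from -0.41 to 0.28 and a median of 0.01. A count of 0 is also what the 0.158% of all genes gives for a list of this length. In WT mice 8 of the 17 rose with bleomycin and none fell, where 19.8% of all genes rose. In the same comparison 5 of 6 skeletal muscle and 6 of 6 macrophage markers rose, and the part of these tissues in the list's rise was not tested. The nearest tested genes were Fgf10, a growth factor, at 0.16 ± 0.38 between genotypes, and Paip1, a translation regulator, at 0.06 ± 0.06, and neither passed (adjusted p = 0.956 and 0.890).

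Tdg, the DNA repair glycosylase (chr10:82629828-82650799, plus strand), ran the other way. It had 1164, 1164 and 1586 counts in WT PBS, 582, 548 and 787 in WT BLM, 417, 237 and 218 in KO PBS and 351, 293 and 282 in KO BLM. The highest KO mouse was 136, the lowest KO mouse for Nnt, and it stayed under the lowest WT BLM mouse. WT PBS mice averaged 39.4 ± 1.06 CPM (SD, n = 3) and WT BLM mice 22.2 ± 4.01, against 9.04 ± 4.17 in KO PBS and 9.93 ± 0.829 in KO BLM. The KO to WT difference was -2.12 ± 0.27 (log2, SE) under PBS and -1.16 ± 0.27 under BLM.

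Bleomycin lowered Tdg in WT mice. It fell by 0.83 on the log2 scale (SE 0.26, edgeR adjusted p = 0.0367), and every WT BLM mouse was below every WT PBS mouse. Tdg was 1 of 2 of the 10 genes that passed in WT mice in edgeR, both of them lower, where 34.0% of all genes passed and 14.1% fell. The other, Gm16867, passed the filter on low counts only through WT PBS, the group where it was high. By unadjusted p under 0.05 and in DESeq2 the count was 4, with Wdfy1 and Nnt higher. For Tdg, leaving out any of the 6 WT mice lost the edgeR call (adjusted p from 0.0573 to 0.110), while the change stayed between -0.95 and -0.69. With the hair genes as a covariate the change of Tdg was -0.15 (adjusted p = 0.936). Hair genes were high in all WT PBS mice and low in all WT BLM mice, so within WT mice their level and the treatment cannot be told apart. In the same comparison all 21 tested hair genes were lower, with log2 fold changes from -9.76 to -3.25 and unadjusted p under 0.05 for 21. Of them 11 passed in edgeR and 8 in DESeq2. In edgeR 6 of 6 macrophage, 5 of 6 skeletal muscle and 4 of 6 fibroblast markers rose. Summed muscle markers were at 3178 to 4357 CPM in WT PBS and at 11848 to 24997 CPM in WT BLM, and the part of these tissues in the change of Tdg was not tested. In KO mice the change was 0.14 ± 0.27 (adjusted p = 0.798), and the difference between responses was 0.96 ± 0.37 (adjusted p = 0.121). Without KO PBS mouse 136 Tdg rose by 0.58 in KO mice (adjusted p = 0.0416) and the responses differed by 1.41 (adjusted p = 0.00111), and without both mice 136 and 141 the KO change was 0.52 (adjusted p = 0.0565).

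Tdg was read beside the 24 other genes of base excision repair and active demethylation. Between genotypes 0 of 24 passed in edgeR, where 0.158% of all genes did, 3 had an unadjusted p under 0.05 and 0 passed in DESeq2, and the median was -0.06 with a range of -0.55 for Neil3 to 0.13 for Nthl1, both of them glycosylases. In WT mice 10 of the 24 fell with bleomycin and none rose, with a median of -0.39, where 14.1% of all genes fell. All 21 tested hair genes were lower too, 11 of them past the threshold, and the part of the hair genes was not tested. In KO mice 0 passed in edgeR, where 0.306% of all genes did, 4 had an unadjusted p under 0.05 and 1 passed in DESeq2.

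Across the 12 libraries Nnt and Tdg were nearly mirror images. Of all tested genes the one most like Nnt by absolute Pearson r of log2 CPM was Tdg (r = -0.98 over 12 libraries), followed by Rbpj (0.95) and Smim24 (0.93). For Tdg the order was Nnt (-0.98), Rbpj (-0.95) and Gm16867 (0.94). Within genotypes, Nnt and Tdg gave r = -0.98 over the 6 WT mice and -0.96 over the 6 KO mice. Wdfy1 was most like Gm14719 (0.98), Gm16867 (-0.97) and Gm9855 (0.96) over all mice, all of them near 0 counts in one genotype. Within the genotype in which each was counted, r with Wdfy1 was -0.15 for Gm14719 and 0.04 for Gm9855 over the 6 KO mice, and -0.80 for Gm16867 over the 6 WT mice. The libraries share genotype, treatment and hair level, so these values are descriptions of 12 points that are not independent.

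**Figure D2:**
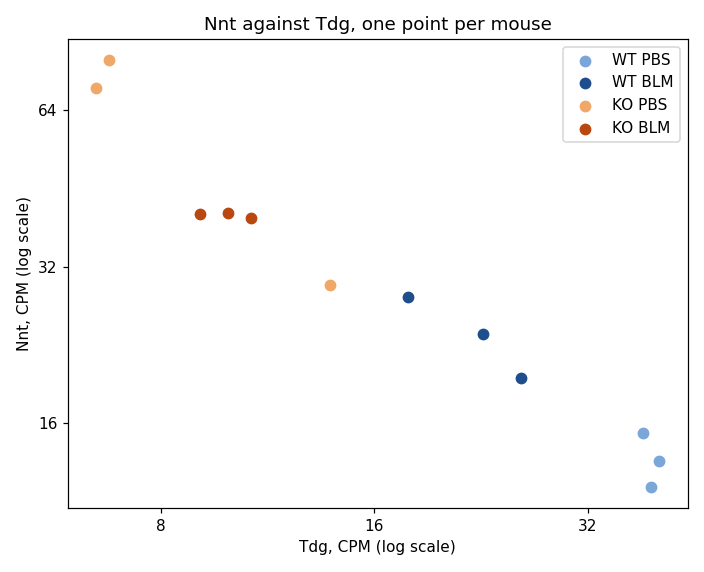
Nnt against Tdg in CPM, both on log axes, with 1 point per mouse coloured by group. The mice form a falling line from WT PBS at the lower right (Tdg near 39.4 CPM, Nnt near 13.6 CPM) to a pair of KO PBS mice at the upper left, and the remaining KO PBS mouse lies beside the WT BLM mice.

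Among the pseudogenes, Gm9855 had more than 3 counts in KO mice only. Its counts were 0, 3 and 1 in WT PBS, 1, 1 and 1 in WT BLM, 328, 169 and 159 in KO PBS and 300, 335 and 279 in KO BLM. Summed over both treatments and scaled for library size, this was 217-fold higher in KO mice (exact 95% interval 105 to 541, covering counting error only). Its parent Tdg was the gene that was low in KO mice. Of the counts on this pair, Gm9855 took 41.6% to 44.0% in KO PBS and 46.1% to 53.3% in KO BLM, and at most 0.257% in any WT mouse.

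Adding the counts of Gm9855 and Tdg narrowed the difference between genotypes. The sum was 39.4 ± 1.02 CPM (SD, n = 3) for WT PBS and 22.2 ± 4.02 for WT BLM, against 15.9 ± 7.71 in KO PBS and 19.7 ± 0.237 in KO BLM. The KO to WT difference of the sum was -1.31 ± 0.27 (log2, SE) under PBS and -0.17 ± 0.27 under BLM, so that under BLM the KO mice lay within the range of the WT mice. The bleomycin change of the sum in WT mice was -0.83 ± 0.27 (edgeR adjusted p = 0.0399).

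Rbpj-ps3 was the pseudogene with the opposite direction. It had 53, 88 and 134 counts in WT PBS, 104, 138 and 123 in WT BLM, 1, 5 and 6 in KO PBS and 2, 5 and 0 in KO BLM, which is 34.8-fold higher in WT mice (22.1 to 58.1). It took 9.67% to 14.97% of the counts on the pair with Rbpj in WT mice and at most 0.335% in KO mice. Bleomycin gave 0.64 ± 0.49 in WT mice (edgeR adjusted p = 0.322).

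The parent Rbpj was also counted differently, but in the other direction. It had 495, 500 and 914 counts in WT PBS, 779, 1037 and 992 in WT BLM, 1051, 2199 and 2096 in KO PBS and 1573, 1487 and 1124 in KO BLM. KO mice were higher by 0.99 ± 0.16 averaged over treatments (log2, SE, edgeR adjusted p = 0.0458), a comparison in which 0.158% of all genes passed. The call is not firm, since it was lost with RLE scaling (adjusted p = 0.0571), whichever mouse other than KO PBS mouse 136 was left out (adjusted p up to 0.226) and once Rbpj-ps3 was added to Rbpj (0.80 ± 0.16, adjusted p = 0.214). It was the only one of 22 tested genes of the Notch pathway list to pass. The median of the list was -0.05, and 2 of the 22 had an unadjusted p under 0.05.

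Gm14719 showed the widest gap of all 18311 tested genes. It had 0 counts in all 3 WT PBS mice, 1, 1 and 0 in WT BLM, 368, 236 and 246 in KO PBS and 348, 371 and 453 in KO BLM. Over both treatments this was 980-fold higher in KO mice (271 to 8095, counting error only). The ratio rests on 2 WT counts, and without WT BLM mouse 145 or 146 it was 1690 or 1636, so that its size is known only roughly. Its share of the pair with Ppdpf was even across KO mice, from 32.4% to 35.9%, and at most 0.161% in WT mice. Bleomycin gave 0.54 ± 0.34 in KO mice (log2, SE, edgeR adjusted p = 0.394). Ppdpf itself had 935, 949 and 1184 counts in WT PBS, 619, 711 and 746 in WT BLM, 760, 493 and 450 in KO PBS and 707, 708 and 808 in KO BLM, a KO to WT difference of -0.41 ± 0.16 that turned to 0.19 ± 0.16 once Gm14719 was added (adjusted p = 0.797 and 0.881).

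Gm29787 had the next widest gap. Its counts were 0, 0 and 2 in WT PBS, 0, 1 and 0 in WT BLM, 209, 191 and 184 in KO PBS and 210, 238 and 234 in KO BLM, 409-fold higher in KO mice (140 to 1986, counting error only). This ratio rests on 3 counts in WT mice, of which 2 are from WT PBS mouse 161, and without that mouse it was 968 (173 to 38255). It took 3.48% to 4.40% of the counts on its pair in KO mice. This pseudogene is the one of the 5 whose windows are rarely shared with its parent. Bleomycin gave 0.30 ± 0.39 in KO mice (edgeR adjusted p = 0.680). Cttn had 5824, 5935 and 7840 counts in WT PBS, 5678, 5906 and 7730 in WT BLM, 5065, 4444 and 5109 in KO PBS and 5022, 5636 and 5089 in KO BLM. It differed by -0.40 ± 0.10 between genotypes, which did not pass in edgeR (adjusted p = 0.345) and passed in DESeq2 (adjusted p = 0.0270).

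Gm14292 was the faintest of the pseudogenes found in KO mice. It had 0, 0 and 2 counts in WT PBS, 1, 0 and 1 in WT BLM, 71, 84 and 77 in KO PBS and 94, 58 and 64 in KO BLM, 109-fold higher in KO mice (42.1 to 400, counting error only). This rests on 4 WT counts, and without WT PBS mouse 161 the ratio was 171 (47.1 to 1418). Its share of the pair with Wtap was 3.72% to 5.24% in KO mice and at most 0.0875% in WT mice. Bleomycin gave -0.02 ± 0.41 in KO mice (edgeR adjusted p = 0.981). Wtap showed no call between genotypes (-0.08 ± 0.07, adjusted p = 0.892).

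**Figure D3:**
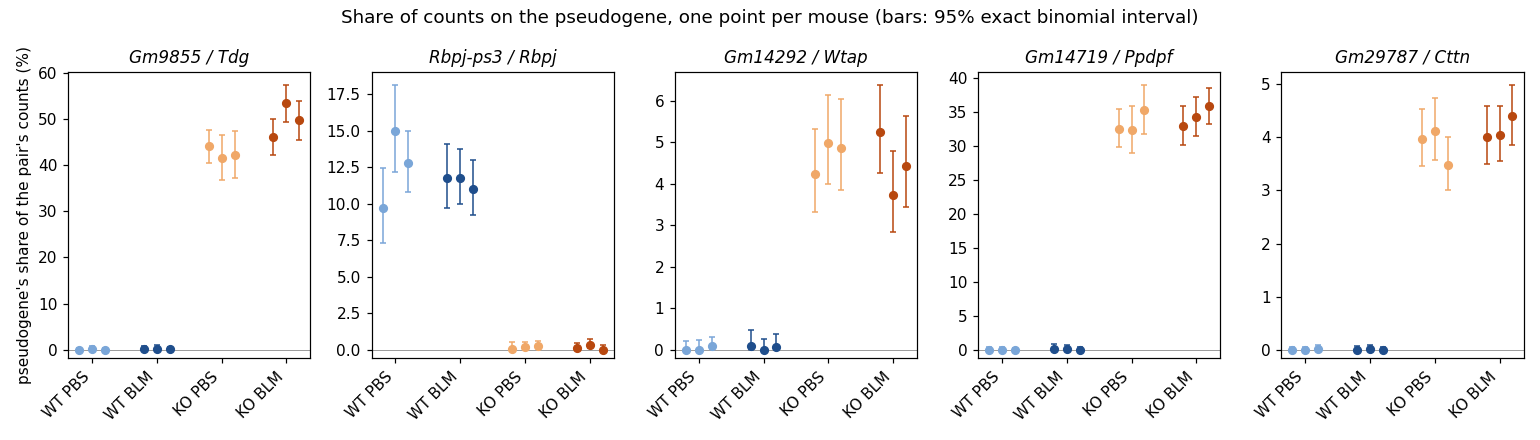
Percentage of the counts on each pseudogene and parent pair that fell on the pseudogene (y axis, linear, a separate scale per panel), 1 point per mouse by group, with exact 95% binomial intervals that cover counting error only. Shares are near 0 in one genotype, and in 4 of 5 panels the KO mice are the high ones. For Gm9855 every KO BLM mouse (46.1% or more) lies above every KO PBS mouse (44.0% or less).

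AA465934, a long noncoding RNA (chr11:83291699-83294632, plus strand), was counted in every library. Its counts were 42, 28 and 43 in WT PBS, 30, 38 and 22 in WT BLM, 103, 112 and 76 in KO PBS and 132, 136 and 113 in KO BLM. The lowest KO mouse had 2.26 CPM and the highest WT mouse 1.42 CPM. The KO to WT difference was 1.37 ± 0.27 (log2, SE) under PBS and 1.96 ± 0.28 under BLM. Bleomycin gave -0.13 ± 0.28 in WT mice and 0.46 ± 0.26 in KO mice, and neither passed (edgeR adjusted p = 0.729 and 0.342).

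Gm16867 (chr14:69363504-69503362, minus strand), a predicted protein-coding gene, was the one with no count in any KO mouse. It had 27, 51 and 45 counts in WT PBS and 6, 10 and 9 in WT BLM. Against a floor of 3 counts set for the KO group, WT mice were 50.9-fold higher over both treatments. The exact interval of the ratio, covering counting error only, had a lower limit of 40.9 and no upper limit. Under PBS alone the value against the floor was 40.8 and the lower limit 32.7, and under BLM alone they were 8.96 and 6.76. Gm16867 fell by 2.10 on the log2 scale with bleomycin in WT mice (SE 0.38, edgeR adjusted p = 0.0118). Its counts in WT BLM were no more than the filter's minimum of 10, so it passed the filter through WT PBS, where it was high. The filter thus favours such a fall, and no support is drawn from the call. That call held without each mouse in turn (adjusted p from 0.00401 to 0.0427) and was lost with the hair genes as a covariate (-1.28, adjusted p = 0.936). With 0 counts in both KO groups no response could be fitted there.

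Parts of Gm16867 share sequence with several genes of the same region. Its transcripts matched Slc25a37 over 382 bases and Loxl2 and Gm21451 over 245 bases without a mismatch, and Entpd4 and Entpd4b over 1145 bases at 99.7% on the opposite strand. Entpd4, a nucleotide-hydrolysing enzyme of the Golgi, and its copy Entpd4b were listed at 0 counts in all 12 libraries. Gm21451, an unprocessed pseudogene that overlaps Gm16867 on the opposite strand, had 6, 3 and 9 counts in WT PBS, 17, 23 and 21 in WT BLM and 0 in all KO mice. It differed between genotypes (edgeR adjusted p = 0.0154) and rose with bleomycin in WT mice, where Gm16867 fell, by 1.95 ± 0.41 (log2, SE, adjusted p = 0.0171). Leaving out each mouse lost the first call for 5 of 12 mice (adjusted p up to 0.0846) and the second for 4 (up to 0.0598). Gm21451 passed the filter on low counts only through WT BLM, where it was high, so no support is drawn from either call. Slc25a37, the mitochondrial iron carrier, and Loxl2, a collagen crosslinking enzyme, differed by 0.07 ± 0.61 and -0.19 ± 0.24 and did not pass (adjusted p = 0.991 and 0.914).

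In KO mice 0 of the 10 genes passed for bleomycin in edgeR, where 0.306% of all genes did. By unadjusted p and in DESeq2 the count was also 0. Averaged over genotypes 0 of 10 passed in edgeR, where 22.9% of all genes did, 1 had an unadjusted p under 0.05 and 0 passed in DESeq2. For the difference between responses, 0 of 10 passed in edgeR, 2 had an unadjusted p under 0.05 (Nnt and Tdg) and 1 passed in DESeq2 (Nnt). Over all genes 0.0% passed that comparison in edgeR, 5687 had an unadjusted p under 0.05 and 3245 passed in DESeq2. Since the genes were chosen for a difference under both treatments, no support for a response is drawn from these values.

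**Figure D4:**
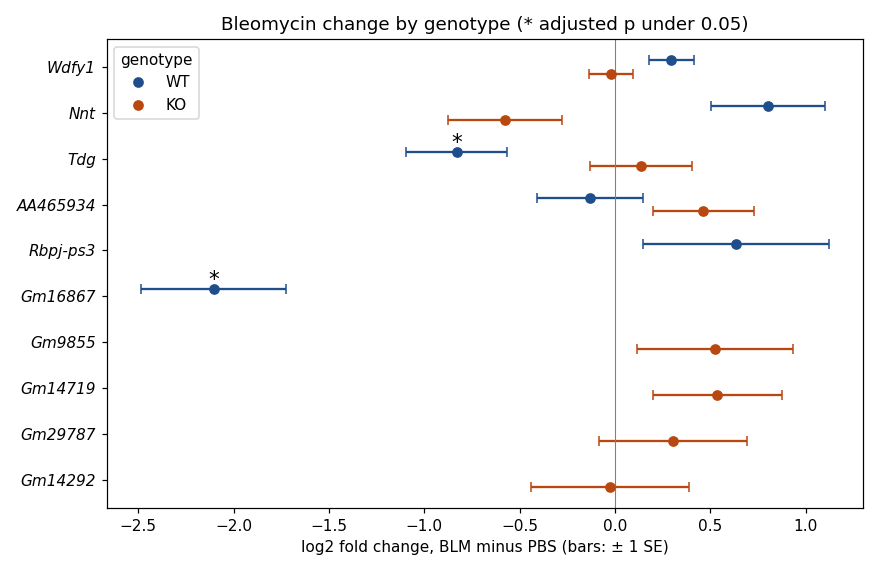
Log2 fold change with bleomycin (x axis, BLM minus PBS, bars ± 1 SE) for each gene in WT (blue) and KO (orange) mice, drawn for the genotypes in which the gene was counted. Asterisks mark the adjusted p under 0.05, reached by Tdg (-0.83) and Gm16867 (-2.10) in WT mice. Gm16867 passed the filter on low counts only through WT PBS, where it was high.

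Some genes near the 10 also differed between genotypes. Within 1 Mb of them 169 tested genes were found, of which 2 (1.18%) passed between genotypes, against 0.158% of all genes, and 4 (2.37%) did not overlap, against 0.328%. Of these 4 genes 3 lie near Tdg (1190007I07Rik, Gm3055 and Gm32687) and 1, Gm21451, overlaps Gm16867. Gm21451 passed the filter on low counts only through WT BLM, where it was high. The called genes were Gm21451 and 1190007I07Rik, a gene 6600 bases before the start of Tdg that was lower in KO mice by 1.29 ± 0.15 (log2, SE, edgeR adjusted p = 0.00667), with 133 to 206 counts in WT mice and 48 to 99 in KO mice. Of the nearest tested genes beside the pseudogenes, Armc2, Foxo3, Cul1, Cdh26, Cdh4, Enox2, Igsf1, Nxnl2 and S1pr3 did not pass, nor did Ap1s3, Serpine2, Hcfc2, Glt8d2, Cntnap2 and Gm11427 (adjusted p of 0.389 or more). Glt8d2, on the opposite strand, overlaps Tdg and shares 367 transcript bases with it. On chromosome 9, 0 of 1015 tested genes passed in edgeR, 69 had an unadjusted p under 0.05, 5 passed in DESeq2 and 2 did not overlap. Over all 18311 genes the same counts were 29 (0.158%), 1017, 156 and 60 (0.328%).

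Genes at which C57BL/6 substrains are known to differ were read beside Nnt and Wdfy1. The list held 7 others, of which Crb1 and Nlrp12 were too low in counts to test. Entpd4, at 0 counts like its copy Entpd4b, was not tested either. Whether reads that fit both copies were left uncounted is not known. Cyfip2, a regulator of actin, differed by -0.44 ± 0.17 between genotypes, Mmrn1 by 0.36 ± 0.35, Ide by 0.08 ± 0.20 and Dock2 by 0.07 ± 0.34 (log2, SE). In edgeR 0 of the 4 passed, where 0.158% of all genes did, 1 had an unadjusted p under 0.05 and 0 passed in DESeq2. Some of these genes differ between substrains in protein sequence or splicing, which counts per gene do not measure.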

How the data were processed

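Skin RNA of 12 mice was sequenced from stranded mRNA libraries. The deposited table holds whole-number counts per gene symbol for each mouse, which the authors did not normalize. The submitters' processing notes name the build GRCm38.p6 and MultiQC 1.7. The aligner, counter, annotation and strand setting are not given in the sources used here.

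Counts of 55453 symbols were filtered with filterByExpr (minimum count 10), which left 18311 genes, scaled by TMM and fitted with edgeR 4.0.16 (glmQLFit and glmQLFTest) over 4 groups of 3 mice. P-values were adjusted by Benjamini-Hochberg over all genes tested, with a threshold of 0.05. SE was taken as the log2 fold change divided by the square root of F. Libraries held 26473700 to 38890450 counts, and the biological coefficient of variation was 34.9%. On simulated counts the fit found 175 of 200 genes changed 4-fold for bleomycin in WT mice. Folds of pseudogenes used summed counts with exact 95% intervals. Transcripts were aligned with BLAST 2.17.0.

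The 10 genes and all gene lists were chosen with earlier results of these data known. Named genes were the 10 genes, parent genes, the nearest tested genes on each side, list members called between genotypes, the substrain list, the 10 other genes with the widest gaps and the 3 genes most like Wdfy1, Nnt and Tdg. Wtap, Ppdpf and Cttn were added by sequence match after values were seen, as were Neil3, Nthl1 and the Wdfy family. Alternatives were DESeq2 1.42.0, RLE scaling, no filter, leaving out each mouse, leaving out both KO mice with high hair genes, a hair covariate and, chosen after seeing the data, adding pseudogene counts to the parent gene. Symbols matched 1 annotated gene for 98.23% of the table. Values of some neighbouring and listed genes are not reported here.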

Additional observations from a re-analysis of the deposited data

How the results depend on the processing

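No paired analysis was possible because no number is shared between mice and the labels link no mice across groups. Counts of genes called, in the order bleomycin in WT, bleomycin in KO, bleomycin averaged, difference between responses and KO against WT, were 6222, 56, 4193, 0 and 29. Leaving out each mouse gave 2615 to 8565, 0 to 2632, 2001 to 6041, 0 to 7470 and 16 to 234, each highest without KO PBS mouse 136, except the average, highest without KO BLM mouse 141. DESeq2, over its own set of genes, called 1202 genes for bleomycin in KO, 3253 for the difference and 160 for KO against WT. The DESeq2 totals of 3245 and 156 given above cover only the 18311 genes that passed the edgeR filter. Without a filter 176 passed for bleomycin in KO and 20 for the difference. Without both KO mice with high hair genes the counts were 4164 for bleomycin in KO, 6643 averaged, 7218 for the difference and 2109 for KO against WT. With the hair covariate they were 15 for bleomycin in WT, 1670 in KO, 2225 averaged and 51 for KO against WT. The cause was not tested.

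The 10 genes did not overlap between genotypes on the TMM, RLE and raw scales. Of all genes tested, 60, 63 and 41 did not overlap on these scales. Of the single-gene comparisons that were tested, 369 alternatives kept direction and side of the threshold, 30 lost a call, 17 gained one and 11 changed sign. With the hair covariate, AA465934 in WT turned to 0.080, Rbpj-ps3 in WT to -0.21 and Tdg in KO to -0.023. Leaving out each mouse, the range crossed 0 for AA465934 in WT (-0.34 to 0.075), Wdfy1 in KO (-0.075 to 0.012), Tdg in KO (-0.054 to 0.58) and Gm14292 in KO (-0.21 to 0.13). Ppdpf between genotypes was 0.19 with Gm14719 added. Of the untested differences between genotypes, 314 moved by less than 1 SD and 36 by more, and none changed sign. Genes with under 3 counts in one genotype have no precise fold.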

Other observations

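The genes of this section were picked by the gap between genotypes in these same mice, so their adjusted p values give no independent support. Those with 5 counts or fewer in one genotype passed the filter on low counts through the other. Outside the 10 genes, Tnfrsf23, a decoy receptor for TRAIL, had the widest gap between genotypes, the third of all genes tested. WT mice held 189 to 949 counts (median 502.5) and KO mice 0 to 5, and the log2 difference was -7.26 ± 0.34 (SE, edgeR adjusted p = 9.55e-06). It lies on chromosome 7. Bpifb5 on chromosome 2 ran the other way, with 0 to 5 counts in WT mice and 14 to 35 in KO mice (adjusted p = 0.0205). Efcab7 on chromosome 4, an EF-hand protein, had 56 to 99 counts in WT mice and 113 to 171 in KO mice, a difference of 1.03 ± 0.14 (adjusted p = 0.0203). Leaving out each mouse lost the call for 9 of 12 mice for Efcab7 (adjusted p up to 0.0959) and for 9 for Bpifb5 (up to 0.104), and for none for Tnfrsf23, Mup8 and Gm3716. Mup8, a major urinary protein, had 7 to 116 counts in WT mice and 0 to 3 in KO mice (adjusted p = 0.00723), and reads of this family of near-identical genes are hard to place.

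The remaining genes among the 10 widest gaps were low in counts and lower in KO mice. They were Gm21451, described above, Gm3716 (adjusted p = 0.00667), Gm44860 (adjusted p = 0.0373) and 4930519P11Rik (adjusted p = 0.0154), which passed in edgeR, and Gm3055 and Gm32687, which did not (adjusted p = 0.0778 and 0.232). Gm3055 and Gm32687 both lie within 1 Mb of Tdg on chromosome 10. The calls of Gm44860 and 4930519P11Rik were lost for 10 and 9 of 12 mice left out (adjusted p up to 0.167 and 0.0824). Gm3716 had 8 to 27 counts in WT mice and 1 to 4 in KO mice, and Gm44860 had 9 to 66 and 0 to 4.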
